A study of Mus musculus with 9 samples.

Results

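The granins and the granule membrane phosphatases are 8 genes of the dense-core granule, the vesicle in which islet cells store insulin and other peptide hormones. They were taken by symbol from a table of 25611 genes: Chga, Chgb, Scg2, Scg3, Scg5 and Vgf for the granin family, and Ptprn and Ptprn2 for the phosphatases. Each symbol matched 1 row, and all 8 were among the 14529 genes with enough counts to be tested. RNA was sequenced from hand-picked pancreatic islets of 4-week-old mice. The 3 libraries labelled KO came from Pdx1-Cre;Glis3fl/fl mice, which carry a conditional allele of the zinc finger factor Glis3 and a Cre recombinase driven by Pdx1, a gene of the early pancreatic lineage. The 4 WT libraries came from Glis3fl/fl mice, which have the conditional allele and no Cre, so the Cre driver and the deletion cannot be told apart. Binding in Glis3-eGFP islets, taken at 8 weeks of age, was mapped by chromatin immunoprecipitation with an antibody against GFP, as 1 list of 21254 peaks with no replicate.

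Granins are acidic proteins of the granule lumen that condense as the granule forms, and most are cut into smaller bioactive peptides. Chromogranin A and B (Chga, Chgb) and secretogranin II (Scg2) are the classical members, secretogranin III (Scg3) tethers chromogranin A to the granule membrane, 7B2 (Scg5) is the chaperone of prohormone convertase PC2, and Vgf is a precursor of several neuroendocrine peptides. IA-2 (Ptprn) and phogrin (Ptprn2) span the granule membrane, have receptor phosphatase domains with little or no activity towards protein tyrosine, and are autoantigens of autoimmune diabetes. In islets these proteins are made by all the main endocrine cell types.

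The promoters are shown for 4 genes, because chromogranin A and B moved in opposite directions and because a cyclic AMP response element, the site bound by factors of the CREB family, is well known in granin promoters. Each sequence is the 150 bases before the RefSeq start site (GRCm38.p6, the assembly also called mm10), written 5′ to 3′ on the strand of the gene, with TGACGTCA, TGACGTAA and the shorter TGACG of either strand in capitals.
Chgb, chr2:132781492-132781641, plus strand: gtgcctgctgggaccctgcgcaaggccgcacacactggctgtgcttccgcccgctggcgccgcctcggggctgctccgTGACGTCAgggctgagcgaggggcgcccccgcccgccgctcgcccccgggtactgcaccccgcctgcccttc
Chga, chr12:102554791-102554940, plus strand: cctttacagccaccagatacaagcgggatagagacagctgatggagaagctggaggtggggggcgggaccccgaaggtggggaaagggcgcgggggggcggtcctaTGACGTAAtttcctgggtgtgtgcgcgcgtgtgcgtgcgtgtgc
Scg2, chr1:79440027-79440176, minus strand: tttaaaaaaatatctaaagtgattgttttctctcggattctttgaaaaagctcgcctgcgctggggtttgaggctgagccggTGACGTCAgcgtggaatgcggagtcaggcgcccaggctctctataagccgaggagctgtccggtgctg
Scg3, chr9:75684057-75684206, minus strand: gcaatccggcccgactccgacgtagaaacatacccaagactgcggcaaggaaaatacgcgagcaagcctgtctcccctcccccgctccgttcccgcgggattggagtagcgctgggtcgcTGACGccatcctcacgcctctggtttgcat
Of the 8 genes, 7 matched the RefSeq promoter table, in windows from 250 bases before to 50 bases after the start site. Vgf had no entry in it, so the promoter of Vgf was not searched. Ptprn has 2 start sites there, which makes 8 windows. TGACGTCA lay in 2 of the 8 windows, those of Chgb and Scg2, against 1.8% of 32544 promoter windows of that length. TGACGTAA lay in 1, that of Chga, against 0.501% of windows, and TGACG, which is part of both longer elements, lay in 6 of the 8, against 20.9%. The Glis core TGGGGGGT lay in none of the 8, against 1.53% of windows, and all searches covered both strands. In Chgb, 144 of the 150 bases printed lay inside a Glis3-eGFP peak, and so did its TGACGTCA, at chromosome 2, 132781570 to 132781577. In Scg3, 15 of the bases printed lay inside a peak, and in Chga and Scg2 none did. The cyclic AMP response elements were searched because they are known in granin promoters, so their shares here are no test of enrichment. A match describes these letters only.

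Total counts ran from 12099365 to 22578480 in the libraries labelled KO and from 18297697 to 48054551 in WT. Levels are CPM, read counts scaled to the size of the library, after TMM normalisation, and each fold change is the library group labelled KO over WT from an edgeR quasi-likelihood fit of all 14529 genes, with Benjamini-Hochberg adjustment and a threshold of 0.05. Glis3, the targeted gene, was not lower: it averaged 54.2 ± 3.11 CPM in the libraries labelled KO and 37.8 ± 6.95 CPM in WT (SD, n = 3 and n = 4; log2 0.52, SE 0.14, edgeR adjusted p = 0.0257). The call of Glis3 as higher was lost in 6 alternatives. Counts summed over a gene leave the loss of single exons unseen, so the labels could not be checked by it and every direction below rests on them. Ins2 took 9.58 ± 2.51% of all counts in the libraries labelled KO (SD, n = 3) and 25.4 ± 2.54% in WT (SD, n = 4). In bulk islets, fewer cells of a type and less RNA per cell cannot be told apart.

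Of the 8 genes, 7 were higher and 1 was lower in the libraries labelled KO, against 8.73% and 5.25% of all tested genes called in these directions. The median log2 fold change was 1.22 over the 8 genes and 0.0065 over all tested genes. The median size of the change, whatever its sign, was 1.28 over the 8 genes and 0.295 over all tested genes. None of the 8 overlapped between the groups, with 7 wholly higher and 1 wholly lower, against 14.0% and 12.6% of all tested genes. In either direction 26.6% of tested genes did not overlap and 14.0% passed the test. With 3 and 4 libraries, these p-values measure the spread between the libraries only. The 8 genes and the lists below were chosen with earlier results of these data known. Their shares and medians beside those of all tested genes are therefore no independent test.

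**Figure D1:**
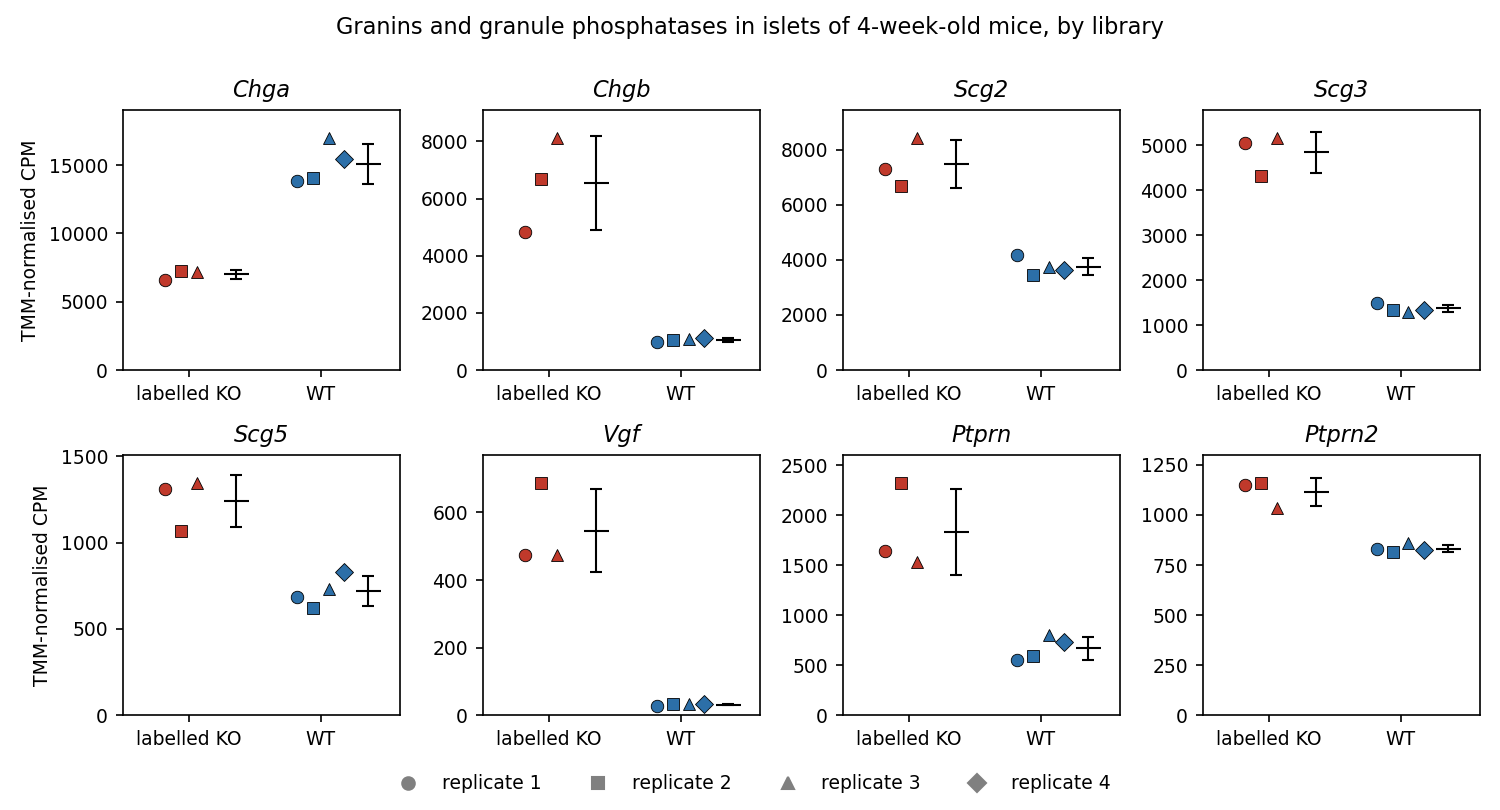
TMM-normalised CPM of each gene in every library, labelled KO (red) left of WT (blue), with mean ± SD to the right of the points and marker shape for the replicate number. Chga sits lower in all 3 libraries labelled KO (6605 to 7262 CPM) than in any WT library (13842 to 17024 CPM), and the other 7 genes sit higher.

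Chromogranin A and chromogranin B, the paired acidic cargo proteins, moved apart. Chga was at 6605, 7262 and 7157 CPM in labelled KO 1 to 3, against 13842, 14085, 17024 and 15425 CPM in WT 1 to 4. The libraries labelled KO lay close together and all below the lowest WT library. Chga fell, 2.15-fold lower in the libraries labelled KO (log2 -1.11, SE 0.13, edgeR adjusted p = 7.5e-05). Chgb was at 4829, 6682 and 8134 CPM in labelled KO 1 to 3, against 978, 1042, 1098 and 1131 CPM in WT 1 to 4. Every library labelled KO was above every WT library, with labelled KO 3 the highest and labelled KO 1 the lowest of the 3. Chgb rose 6.17-fold (log2 2.62, SE 0.16, edgeR adjusted p = 3.7e-07), and 1.4% of all tested genes had a larger change.

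No transcript length was used, so ratios and shares of counts between genes are compared between libraries only. Within each library the count ratio of Chgb to Chga does not depend on library scaling. It was 0.731, 0.92 and 1.14 in labelled KO 1 to 3, against 0.0706, 0.074, 0.0645 and 0.0733 in WT 1 to 4. The ratio therefore averaged 0.929 ± 0.203 (SD, n = 3) in the libraries labelled KO and 0.0706 ± 0.0043 (SD, n = 4) in WT, 13.2 times apart. Chga counts were 23 ± 1.31% of the summed counts of the 8 genes in the libraries labelled KO (SD, n = 3) and 64.1 ± 2.13% in WT (SD, n = 4), while Chgb counts were 21.2 ± 3.78% in the libraries labelled KO (SD, n = 3) and 4.52 ± 0.243% in WT (SD, n = 4). The 8 genes together took 3.28 ± 0.107% of all counts in the libraries labelled KO (SD, n = 3) and 2.23 ± 0.193% in WT (SD, n = 4).

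**Figure D2:**
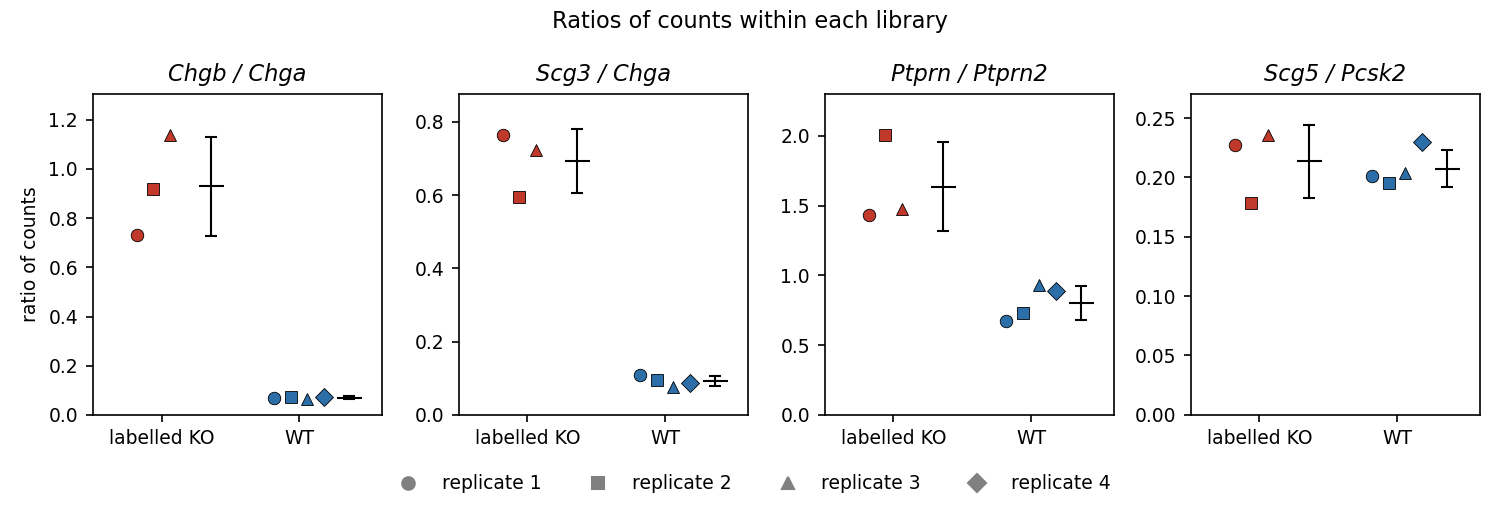
Ratios of counts of gene pairs in each library, labelled KO (red) left of WT (blue), with mean ± SD to the right and marker shape for the replicate number. The ratio of Chgb to Chga runs from 0.731 to 1.14 in the libraries labelled KO and from 0.0645 to 0.074 in WT, while the ratio of Scg5 to Pcsk2 overlaps between the groups.

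The 3 secretogranins all rose. Scg3, whose product holds cargo at the granule membrane, was at 5039, 4320 and 5167 CPM in labelled KO 1 to 3, against 1492, 1342, 1301 and 1336 CPM in WT 1 to 4. The WT libraries lay within a narrow range, and all libraries labelled KO were far above it (log2 1.82, SE 0.12, edgeR adjusted p = 6.4e-07, 3.54-fold). Scg2, the precursor of secretoneurin, was at 7288, 6696 and 8435 CPM in labelled KO 1 to 3, against 4162, 3447, 3749 and 3644 CPM in WT 1 to 4. The gap between the groups was wider than the range of either (log2 0.99, SE 0.13, edgeR adjusted p = 0.000154, 1.99-fold). Scg5, encoding the PC2 chaperone 7B2, was at 1308, 1068 and 1347 CPM in labelled KO 1 to 3, against 685, 622, 733 and 830 CPM in WT 1 to 4. Its lowest library labelled KO, number 2, was still above the highest WT library (log2 0.79, SE 0.14, edgeR adjusted p = 0.00139, 1.73-fold).

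The partner that 7B2 chaperones, Pcsk2, stood at 5823 ± 147 CPM in the libraries labelled KO (SD, n = 3) and 3452 ± 201 CPM in WT (SD, n = 4), and rose too (log2 0.75, SE 0.12, edgeR adjusted p = 6.0e-04). The count ratio of Scg5 to Pcsk2 was 0.227, 0.178 and 0.235 in labelled KO 1 to 3, against 0.201, 0.195, 0.203 and 0.23 in WT 1 to 4, so this ratio overlapped between the groups. The ratio of Scg3 to Chga, whose products bind each other, averaged 0.693 ± 0.0876 in the libraries labelled KO (SD, n = 3) and 0.0915 ± 0.0133 in WT (SD, n = 4).

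Vgf had the largest change of the 8 genes. It was at 475, 688 and 475 CPM in labelled KO 1 to 3, against 27.6, 32, 33.4 and 32.4 CPM in WT 1 to 4. These levels rest on 6400 to 15929 counts per library labelled KO and 548 to 1643 counts per WT library. The WT libraries were nearly level, and labelled KO 2 stood above the other libraries labelled KO. Vgf rose 17.5-fold (log2 4.13, SE 0.16, edgeR adjusted p = 6.6e-09). It had the second smallest p of all tested genes, and 0.544% of them had a larger change.

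The phosphatase pair rose to different extents. Ptprn (IA-2) was at 1640, 2325 and 1528 CPM in labelled KO 1 to 3, against 555, 596, 797 and 731 CPM in WT 1 to 4. As for Vgf, labelled KO 2 was the highest library, and the groups did not overlap (log2 1.45, SE 0.17, edgeR adjusted p = 6.1e-05, 2.73-fold). Ptprn2 (phogrin) was at 1148, 1161 and 1037 CPM in labelled KO 1 to 3, against 829, 814, 859 and 826 CPM in WT 1 to 4. The groups were close together without overlapping, and the rise was 1.34-fold (log2 0.42, SE 0.11, edgeR adjusted p = 0.0216), smaller than the change of 35.9% of all tested genes. The call of Ptprn2 was lost with an acinar covariate (edgeR adjusted p = 0.0816) and without labelled KO 1 (0.0881), labelled KO 2 (0.0587), WT 2 (0.0601) or WT 3 (0.0617), with 9.3e-05 to 0.0881 over all alternatives. The log2 fold change of Ptprn2 was 0.42 with the acinar covariate and ran from 0.39 to 0.60 over all alternatives. The count ratio of Ptprn to Ptprn2 was 1.43, 2 and 1.47 in labelled KO 1 to 3, against 0.67, 0.731, 0.929 and 0.885 in WT 1 to 4.

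**Figure D3:**
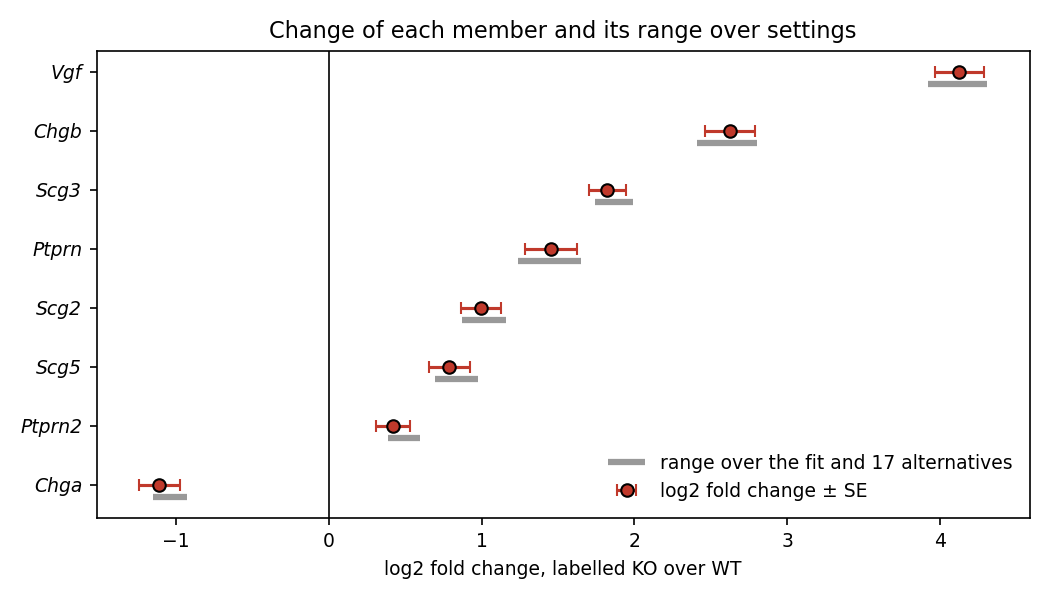
Log2 fold change of each gene, labelled KO over WT, with its SE (red) and the range over the fit and 17 alternative settings (grey). The order runs from Vgf at 4.13 to Chga at -1.11, and no range crosses 0.

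The genes differed in which library labelled KO was highest. Relative to the WT mean on the log2 scale, Vgf stood at 3.92, 4.46 and 3.92 in labelled KO 1 to 3 and Ptprn at 1.31, 1.81 and 1.21, both highest in labelled KO 2. Scg3 stood at 1.88, 1.66 and 1.92 and Scg5 at 0.87, 0.58 and 0.92, both lowest in labelled KO 2. Chgb stood at 2.19, 2.66 and 2.94 and was highest in labelled KO 3. Labelled KO 2 also had the most acinar RNA, with summed acinar markers of 2081, 11415 and 2877 CPM in labelled KO 1 to 3, against 745, 3676, 682 and 4089 CPM in WT 1 to 4. Without labelled KO 2 the log2 fold change was 3.92 for Vgf, 2.61 for Chgb, 1.90 for Scg3, 1.24 for Ptprn, 1.07 for Scg2, 0.88 for Scg5, 0.39 for Ptprn2 and -1.14 for Chga, and the calls of all but Ptprn2 were kept. The spread within the libraries labelled KO, as SD over mean, ran from 5.04% for Chga to 25.3% for Chgb, and within WT from 2.27% for Ptprn2 to 17% for Ptprn. The likeness of patterns was measured as the root mean square difference of log2 CPM over the 7 libraries after centring each gene on its mean. Among the 8 genes, Scg2 and Scg5 were nearest (0.172) and Chga and Vgf were farthest apart (2.58).

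Across 10299 other genes with at least 5 CPM on average, the nearest pattern to Vgf was that of Tagln3 (0.32; log2 fold change 3.72), a neuronal relative of transgelin, then Aass (0.362) and Lmo1 (0.399). Nearest to Chgb were Zcchc12 (0.278), the amino acid transporter gene Slc38a5 (0.296) and Fstl5 (0.3). Nearest to Scg3 were Cntn1 (0.111), Kl (0.124) and Enpp2 (0.138), nearest to Ptprn were Rspo4 (0.123), Rgs9 (0.133) and Il18bp (0.154), and nearest to Chga were F3 (0.103), Flcn (0.104) and Dact2 (0.105). For Scg2 they were Tmem59 (0.0847), Hexim2 (0.0878) and Faap20 (0.0987), for Scg5 Atraid (0.06) and Zwint (0.0744), and for Ptprn2 Eif3g (0.051), Mthfd1l (0.0539) and Dnajc1 (0.0563). The likeness measure includes the difference between the groups. Zcchc12, Fstl5, Tagln3, Aass and Lmo1 averaged under 5 CPM in WT.

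Among other cargo and processing genes of the granule, the convertases and the amidating enzyme rose and the insulin genes fell. Of 14 measured, 7 rose, 2 fell and 5 did not pass, against 8.73% higher and 5.25% lower of all tested genes, with a median log2 fold change of 0.75 against 0.0065 over all tested genes. Pcsk1, encoding the convertase PC1/3, was at 602 ± 44.5 CPM in the libraries labelled KO (SD, n = 3) and 217 ± 5.75 CPM in WT (SD, n = 4; log2 1.47, SE 0.11, edgeR adjusted p = 1.8e-06). The amidating enzyme gene Pam (log2 1.27, SE 0.12), the nesfatin precursor gene Nucb2 (1.42, SE 0.15) and the amylin gene Iapp (1.84, SE 0.16) rose with Pcsk2. The members that fell were Ins2 (log2 -1.59, SE 0.23) and Ins1 (-1.30, SE 0.28), close copies between which reads may be split. Pcsk1n, the proSAAS precursor often counted as a granin, stood at 2635 ± 291 CPM in the libraries labelled KO (SD, n = 3) and 2224 ± 732 CPM in WT (SD, n = 4), and did not pass (edgeR adjusted p = 0.504). Pcsk1n was named after its values were seen.

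Most granule membrane and release genes did not pass the test. Of 25 measured, 5 rose, 3 fell and 17 did not pass (median log2 0.15), against 8.73% higher and 5.25% lower of all tested genes. The synaptic vesicle protein gene Sv2c (11.7 ± 0.321 CPM in the libraries labelled KO, n = 3, and 1.14 ± 0.607 CPM in WT, n = 4, SD), the synaptotagmin gene Syt5 (1.14, SE 0.18) and the tetraspanin gene Cd63 (0.50, SE 0.13, edgeR adjusted p = 0.0181) rose. The granuphilin gene Sytl4 (log2 -1.38, SE 0.19), the granule zinc transporter gene Slc30a8 (-0.95, SE 0.14) and the Rab27 effector gene Exph5 (-0.66, SE 0.13) fell. The number that rose was 9 scaled by library size alone, 3 with no filter on low counts, 3 with an acinar covariate, and 2 without labelled KO 1, labelled KO 3, WT 2 or WT 3, and 3 without WT 4. Exph5 was not called scaled by library size alone (edgeR adjusted p = 0.101), and Cd63 was not called without labelled KO 1 (0.0558), labelled KO 3 (0.0994), WT 2 (0.0588) or WT 3 (0.0713).

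Of 24 tested genes of granule formation and maturation, 1 rose, 1 fell and 22 did not pass (median log2 0.02), against 8.73% higher and 5.25% lower of all tested genes. The number higher was 4 scaled by library size alone, 2 with DESeq2 or without labelled KO 2, and 0 without labelled KO 1 or labelled KO 3. Prkd1, a kinase of vesicle fission at the Golgi, rose (log2 0.57, SE 0.14, edgeR adjusted p = 0.0141) but not without labelled KO 1 (0.055) or labelled KO 3 (0.0627). Vps51, a tethering complex subunit gene, fell (log2 -0.41, SE 0.13, edgeR adjusted p = 0.045). The call of Vps51 was lost without any 1 of the 7 libraries (edgeR adjusted p from 0.0519 to 0.14), scaled by library size alone (0.421), with an acinar covariate (0.107) and with a block for the replicate number (0.0684). The 3 genes listed as receptors for Vgf peptides (C3ar1, C1qbp and Hspa8) did not pass.

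Most of the other receptor phosphatases did not pass the test. Of 16 tested, 2 rose, 3 fell and 11 did not pass (median log2 -0.09), against 8.73% higher and 5.25% lower of all tested genes. Ptprz1, which binds pleiotrophin, was at 32.4 ± 1.4 CPM in the libraries labelled KO (SD, n = 3) and 8.57 ± 1.62 CPM in WT (SD, n = 4; log2 1.92, SE 0.17, edgeR adjusted p = 5.5e-06), and Ptprb, the vascular endothelial phosphatase, rose by 0.42 (SE 0.12, edgeR adjusted p = 0.0319). The call of Ptprb was lost without any 1 library except labelled KO 2 (0.0589 to 0.126), with an acinar covariate (0.065) and with a block for the replicate number (0.0624). Ptprj (log2 -0.73, SE 0.17), Ptpra (-0.46, SE 0.11) and Ptprf, the LAR phosphatase (-0.53, SE 0.13), fell. None of these 3 was called scaled by library size alone (edgeR adjusted p = 0.0755, 0.252 and 0.118 in that order), and Ptprf was not called without labelled KO 1 (0.0845).

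Genes of transcription and splicing factors known in neuroendocrine cells were mixed, with 4 of 18 higher, 5 lower and 9 not passing (median log2 -0.34), against 8.73% higher and 5.25% lower of all tested genes. Without WT 3 the number lower was 3. Isl1, a LIM homeodomain factor of islet endocrine cells (log2 0.73, SE 0.11, edgeR adjusted p = 6.5e-04), the splicing factor gene Srrm4 (15.3 ± 1.71 CPM in the libraries labelled KO, n = 3, and 6.57 ± 1.68 CPM in WT, n = 4, SD), the RNA-binding protein gene Celf4 (0.58, SE 0.12) and Crem, which encodes factors that bind the cyclic AMP response element (0.65, SE 0.15, edgeR adjusted p = 0.0116), rose. Stat5b, through which growth hormone and prolactin act on islets (log2 -0.72, SE 0.12), and Rcor2, a corepressor partner of REST (-1.23, SE 0.24), fell. Creb1 stood at 25.2 ± 10.6 CPM in the libraries labelled KO (SD, n = 3) and 35.4 ± 3.5 CPM in WT (SD, n = 4; edgeR adjusted p = 0.2). Rest, the repressor of neuroendocrine genes, had too few counts to be tested, with 0, 19 and 0 counts in labelled KO 1 to 3, against 1, 4, 1 and 0 in WT 1 to 4. Creb1 and Rest were chosen after their values were seen.

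**Figure D4:**
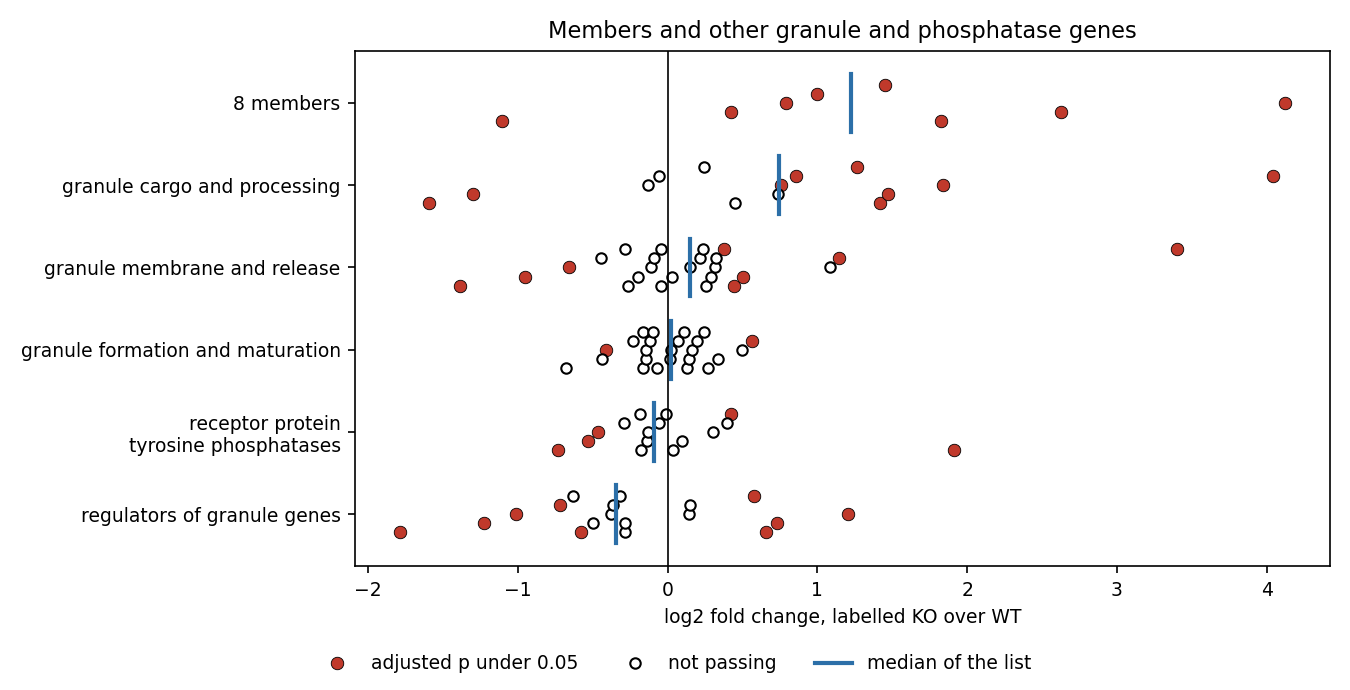
Log2 fold change, labelled KO over WT, of the 8 genes and of the tested genes in 5 other lists, filled where the edgeR adjusted p was under 0.05, with the median of each list as a vertical line. The medians run from 1.22 for the 8 genes and 0.75 for cargo and processing genes to -0.34 for regulators.

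Markers of other cells moved with some of these groups. Each count of called markers below stands against 8.73% higher and 5.25% lower of all tested genes. Of 10 tested neuron and Schwann cell markers, 2 were higher in the libraries labelled KO, Th and Snap25, and 8 did not pass. The summed level of that list was 502 to 561 CPM in the libraries labelled KO and 315 to 374 CPM in WT, and Dbh and Chat had too few counts to be tested. The Schwann cell markers did not pass, with Sox10 at 5.55 ± 3.9 CPM in the libraries labelled KO (SD, n = 3) and 4.45 ± 0.891 CPM in WT (SD, n = 4), and Mbp at 55.6 ± 6.11 and 58.4 ± 9.43 CPM, labelled KO before WT. Of 4 tested enterochromaffin markers none passed, the sum was 265 to 320 CPM in the libraries labelled KO and 292 to 397 CPM in WT, and Lmx1a was at 0 in all libraries. Of 11 tested acinar markers none passed, the sum was 2081 to 11415 CPM in the libraries labelled KO and 682 to 4089 CPM in WT, and the amylase gene Amy2a5 was at 0 in all libraries in the row used, the first of several with that symbol. Duct markers summed to 773 to 957 CPM in the libraries labelled KO and 255 to 312 CPM in WT, with Spp1 alone of 6 called, and mesenchymal markers to 440 to 571 CPM in the libraries labelled KO and 301 to 390 CPM in WT, with Rgs5 and Dcn of 7 higher. Immune markers summed to 14.7 to 25.7 CPM in the libraries labelled KO and 24.3 to 33 CPM in WT, with 1 of 5 lower. The lower gene was Cd79a (log2 -3.76, SE 0.59), which averaged 16.3 CPM in WT, a large part of the WT sum. Of the 4 not called, Adgre1, Lyz2 and Cd68 had log2 fold changes of 0.81, 0.72 and 0.28, and Ptprc of -0.19. The lower sum therefore does not describe the immune list as a whole. These immune genes were named after their values were seen. Endothelial markers summed to 561 to 703 CPM in the libraries labelled KO and 510 to 584 CPM in WT, with none of 6 called. With the acinar covariate 7 of the 8 granule genes kept their call, Ptprn2 lost it at a log2 fold change of 0.42, and the part of the other lists in the result was not tested.

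Markers of the endocrine cells, which hold the granules, also differed. Their counts of called markers likewise stand against 8.73% higher and 5.25% lower of all tested genes. The beta cell list summed to 189081 to 299367 CPM in the libraries labelled KO and 329376 to 550416 CPM in WT, with 1 of 9 higher and 5 lower. The alpha list, with 3 of 8 higher and 3 lower, summed to 46342 to 50016 CPM in the libraries labelled KO and 37349 to 76008 CPM in WT. The delta list, with 2 of 6 higher, summed to 9050 to 10167 CPM in the libraries labelled KO and 6044 to 9747 CPM in WT. The gamma and epsilon list, with Pyy and Ppy of 5 lower, summed to 1982 to 2622 CPM in the libraries labelled KO and 7891 to 14391 CPM in WT. The beta, alpha, delta, and gamma and epsilon sums came mostly from hormone genes. Ppy averaged 478 and 6330 CPM and Pyy 1820 and 4889 CPM, labelled KO before WT. In the libraries labelled KO and in WT, Ins2 averaged 90319 and 272484 CPM and Ins1 52149 and 128563 CPM. Iapp, the beta marker that was higher, averaged 85883 and 23991 CPM, Gcg 41576 and 51733 CPM, and Sst 8202 and 7522 CPM, labelled KO before WT. Gcg (log2 -0.32, SE 0.20, edgeR adjusted p = 0.343) and Sst (log2 0.12, SE 0.16, edgeR adjusted p = 0.677) were among the markers not called. The part of cell composition in the results was not tested.

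Of the 25 genes that lie within 50 kb of these 8 genes, 19 were tested, of which 3 were higher and 1 was lower, against 8.73% higher and 5.25% lower of all tested genes. The neighbours of Vgf were Plod3, a lysyl hydroxylase gene 33.65 kb away (91.6 ± 3.07 CPM in the libraries labelled KO, n = 3, and 42.1 ± 4.59 CPM in WT, n = 4, SD; edgeR adjusted p = 1.9e-05), and Ap1s1, an adaptor subunit gene 1.64 kb away (log2 0.45, SE 0.11, edgeR adjusted p = 0.0163), both higher. Near Ptprn, Glb1l was higher, with libraries that overlapped between the groups (log2 1.17, SE 0.37, edgeR adjusted p = 0.0481), and the granule protein gene Resp18, 7.99 kb away, did not pass (log2 0.45, SE 0.16, edgeR adjusted p = 0.0825). Itpk1, 3.56 kb from Chga, was lower as Chga was (log2 -0.96, SE 0.25, edgeR adjusted p = 0.0191). No tested neighbour of Chgb, Scg3, Scg5 or Ptprn2 passed. These neighbours were named after their values were seen, and genes whose spans overlap, as Mir153 lies inside Ptprn2, may share reads.

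All 8 genes had a Glis3-eGFP peak within 50 kb of their 5′ end, against 91.1% of all tested genes, a share near that of the rest. Within 10 kb 7 of the 8 had one, against 80.5%, and all 8 had one within 100 kb of the 5′ end, against 95.0%, or within 50 kb of the gene span, against 93.7%. The 8 genes had a median of 3.5 peaks within 50 kb, against 2 over all tested genes. Of the 32 peaks found, 18 were nearest to the gene itself and 14 were nearer to the 5′ end of another gene.

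**Figure D5:**
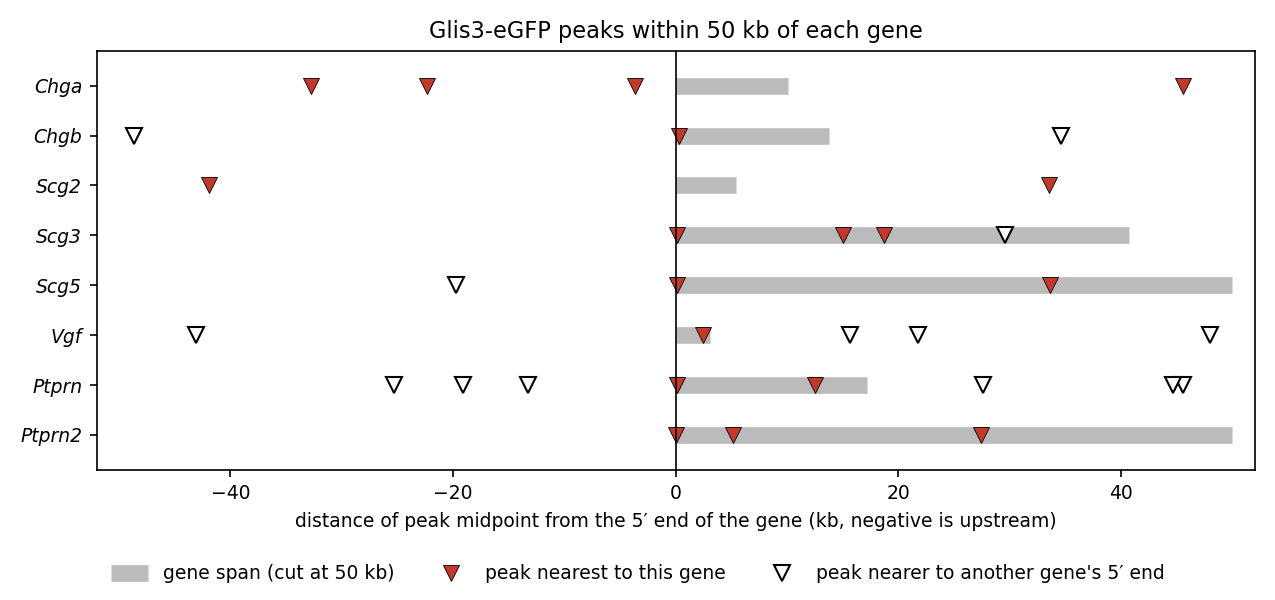
Midpoints of Glis3-eGFP peaks by distance from the 5′ end of each gene in kb, with the gene span in grey, filled where no other gene has a nearer 5′ end. Scg3, Scg5, Ptprn, Ptprn2 and Chgb have a peak at the 5′ end, while Scg2 has none within 33.5 kb.

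The peaks at these genes lay in different places. Ptprn2 had a peak midpoint 30 bases from its 5′ end, Scg5 81 bases, Scg3 85 bases, Ptprn 108 bases and Chgb 257 bases, which makes 5 of 8 within 300 bases, a distance chosen after the values were seen, against 53.5% of all tested genes. The Chgb peak (chr2:132781436-132781635) lay 107 bases before the RefSeq start site, whose position differs from the 5′ end in the count table. The single peak nearest to Vgf (chr5:137032651-137032850) lay inside the gene, 2.46 kb after its 5′ end, and 4 others within 50 kb were nearer to the 5′ end of another gene. Chga, the gene that fell, had none at its promoter, and its nearest peak (chr12:102551184-102551383) lay 3.66 kb upstream, followed by peaks 22.3 and 32.8 kb upstream with no nearer gene. Scg2 had the most distant nearest peak, 33.5 kb beyond its 5′ end and downstream of the gene, and a nearer peak was found for 88.6% of all tested genes. Scg3 held 3 more peaks inside its span, and Ptprn2 held all of its 8 peaks inside its span of 792 kb, of which 3 lay within 50 kb of the 5′ end. Ptprn had 8 peaks within 50 kb, of which 2 were nearest to it and 3 were nearest to its neighbour Resp18.

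Genes with and without a peak at the 5′ end were found among both small and large changes. The 5 genes with a peak within 300 bases had log2 fold changes of 0.42 (Ptprn2), 0.79 (Scg5), 1.45 (Ptprn), 1.82 (Scg3) and 2.62 (Chgb). The others stood at -1.11 (Chga), 0.99 (Scg2) and 4.13 (Vgf). As the binding data are 1 library at another age, no test was made of binding against change.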

How the data were processed

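The authors deposited whole-number counts per gene for the 7 RNA libraries, with gene symbols and coordinates, and a list of peaks of 200 bases with no score. STAR 2.5, featureCounts 1.5.0-p1, Bowtie 1.2, HOMER 4.9.1 and build mm10 are named per the submitters' processing notes. Not given in the sources used here are the settings, strand option and peak thresholds. The input library was not analysed here.

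Libraries were grouped by their titles. Genes were kept with filterByExpr, scaled with TMM and tested with edgeR 4.0.16 (R 4.3.3; quasi-likelihood F test, robust), and p-values were adjusted over all 14529 genes. SE was taken as the size of the log2 fold change over the root of its F value. The fit was tested on simulated counts. Log2 CPM used a prior count of 2. No libraries were copies (chi-square per degree of freedom 23.4 to 95.4). In 988 rows the symbol repeats that of an earlier row, and of the genes described only the acinar marker Amy2a5 is affected, read from its first row.

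Distances run between peak midpoints and gene 5′ ends. No transcript length was used, so ratios and shares of counts between genes are compared between libraries only and do not give relative numbers of transcripts. Sequences are from RefSeq (GRCm38.p6).

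The 8 genes and the lists were chosen with earlier results of these data known. Named genes were the 8, Glis3, islet hormones, up to 6 called genes per list with the smallest p, and the 3 nearest patterns per gene (1 is not reported here), with other names marked where they appear. Alternatives were other scaling, filters, DESeq2 1.42.0, limma-voom (limma 3.58.1), a replicate block, acinar and Xist covariates, and leaving out each library, and the 10 most abundant genes (Chga and Scg2 among them) left out of the scaling only.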

Additional observations from a re-analysis of the deposited data

How the results depend on the processing

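Over 17 alternatives, 6 or 7 of the 8 genes were called higher and 1 was called lower, and no gene changed direction. Only Ptprn2 lost its call, in 5 alternatives. Without 1 library at a time the number higher ran from 6 to 7. Scaled by library size alone, the median log2 fold change of all tested genes was 0.18 against 0.0065, and the changes of the 8 genes are read relative to that shift. With that scaling 1854 genes were higher and 324 lower (85.1% of called genes higher, against 62.4% of 1268 higher and 763 lower), and 8 genes of the other lists were lower against 14. With the acinar covariate 506 genes were lower.

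Deviations of same-numbered libraries from their group means correlated at 0.126, 0.08 and 0.092. Those of differently numbered libraries correlated from -0.139 to 0.124, the highest being labelled KO 3 with WT 4. With correlations this weak, whether the replicate numbers pair the libraries stays unsettled. With the replicate block 7 of the 8 genes were higher and 1 lower, 1385 genes in all were higher and 803 lower, and 19 and 14 genes of the other lists were higher and lower.

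Of 62 named genes, none reversed, 12 lost their call in at least 1 alternative and 2 gained it, Sst (log2 0.32) and Mthfd1l (0.57) scaled by library size alone. Of the 8 genes, those with a peak numbered 7 within 10 kb and 8 within 100 kb or by gene span. With 3 against 4 libraries, small changes such as that of Ptprn2 are near the limit of what is called.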
